A study of Homo sapiens with 8 samples.

Results

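The 9 genes described here build the link between integrins and the actin cytoskeleton, and were followed across a soft and a stiff gel, before and after mesoderm induction. The members were chosen by name: TLN1, VCL, PXN, ZYX and PTK2 of the focal adhesion, and ACTN1, ACTN4, FLNA and FLNC, which crosslink actin filaments. All 9 of 9 were found, each in 1 row of both tables, out of 32415 named symbols in either table. The cells were H9, an established human embryonic stem cell line, routinely cultured in KSR-DMEM and then grown on gels in medium conditioned by feeder cells. Total RNA of 8 libraries was sequenced, in 4 groups of 2. They are the cells at day 3.5 after induction to mesoderm with bFgf, Activin, VEGF and BMP4, on 400 Pa and on 60 kPa, and the undifferentiated cells at day 0, on 400 Pa and on 60 kPa. The authors gave 1 FPKM (fragments scaled to transcript length and library size) per gene and group, so the spread between the libraries of a group is not known, nor is the read depth. Separate cultures for the 2 libraries of a group are not stated in the labels, so the deposited p-values cover the variation among these libraries alone, and this may be technical.

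Focal adhesions are the sites where integrin receptors, bound to the matrix outside, grip actin filaments inside the cell. Talin binds the integrin tail and, when stretched, exposes sites for vinculin, which adds further links to actin. Paxillin and focal adhesion kinase (the product of PTK2) turn the adhesion into a signalling platform, zyxin joins it under tension, and the alpha-actinins and filamins bundle or cross the filaments that pull on it. On stiff matrix such adhesions usually grow and on soft matrix they stay small, through assembly of existing protein as well as through transcription. Transcript levels alone were measured here, not adhesions or proteins.

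The labelled cell states were checked against their markers. The 7 embryonic stem cell markers summed to 411 FPKM on 400 Pa and 678 FPKM on 60 kPa at day 3.5, against 1390.3 and 1458 FPKM at day 0. Of 9 mesoderm markers, 8 were in the day 3.5 table, where they summed to 121 FPKM on 400 Pa and 46.4 FPKM on 60 kPa. At day 0 all mesoderm markers listed but KDR were below 1 FPKM in both groups (6 of 7). Of 9 fibroblast markers, 8 were listed, summing to 262 and 73.2 FPKM on 400 Pa and 60 kPa at day 3.5, against 159 and 212 FPKM at day 0. THY1 made up most of the day 0 sums, at 135 and 191 FPKM, and was at 25.5 and 26.8 FPKM at day 3.5. LUM made up most of the difference between the gels at day 3.5, at 136 FPKM on 400 Pa and 4.69 FPKM on 60 kPa. DCN was at 38.7 and 3.79 FPKM and COL3A1 at 17.7 and 0.39 FPKM, while COL1A2, THY1 and PDGFRB were lower on 400 Pa. LUM, DCN, COL3A1 and POSTN were below 1 FPKM in both groups at day 0. Of 6 smooth muscle markers, 5 were listed, summing to 64.5 and 44.8 FPKM at day 3.5 and to 214 and 517 FPKM at day 0, with MYH11 and DES below 1 FPKM throughout. TAGLN made up most of each sum, at 46.7 and 33.8 FPKM at day 3.5 and 195 and 489.6 FPKM at day 0. ACTA2 lay between 0.31 and 1.27 FPKM in the 4 groups. Day 3.5 cells still carried stem cell transcripts on both gels. In bulk RNA, fewer cells of a type and less RNA per cell cannot be told apart.

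The members spanned a wide range of levels. FLNA, the main non-muscle filamin, had 130.1 FPKM on 400 Pa and 128 FPKM on 60 kPa in the day 3.5 cells, and 162 and 186 FPKM in the day 0 cells. ACTN4, an alpha-actinin of non-muscle cells, had 96.6 and 78.4 FPKM at day 3.5 on the same gels, and 115 and 132 FPKM at day 0. PTK2 had 146 and 138 FPKM at day 3.5, and 106 and 111 FPKM at day 0. These genes took the top 3 ranks among the members in every group, with PTK2 first at day 3.5 on both gels and FLNA first at day 0 on both gels. VCL had rank 4 in every group. PXN and ZYX lay between 5.03 and 12.3 FPKM in all groups, near the middle of the tested genes (percentiles 36.4 to 54.9). FLNC, the filamin best known from muscle, was the lowest member at day 0 on both gels and had rank 7 at day 3.5 on 400 Pa and rank 8 on 60 kPa. Neighbours in this order could not be tested against library spread, and ACTN1 and TLN1, at 17.8 and 22.3 FPKM on 400 Pa and 19.8 and 17.1 FPKM on 60 kPa at day 3.5, stood in the opposite order on the gels.

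**Figure D1:**
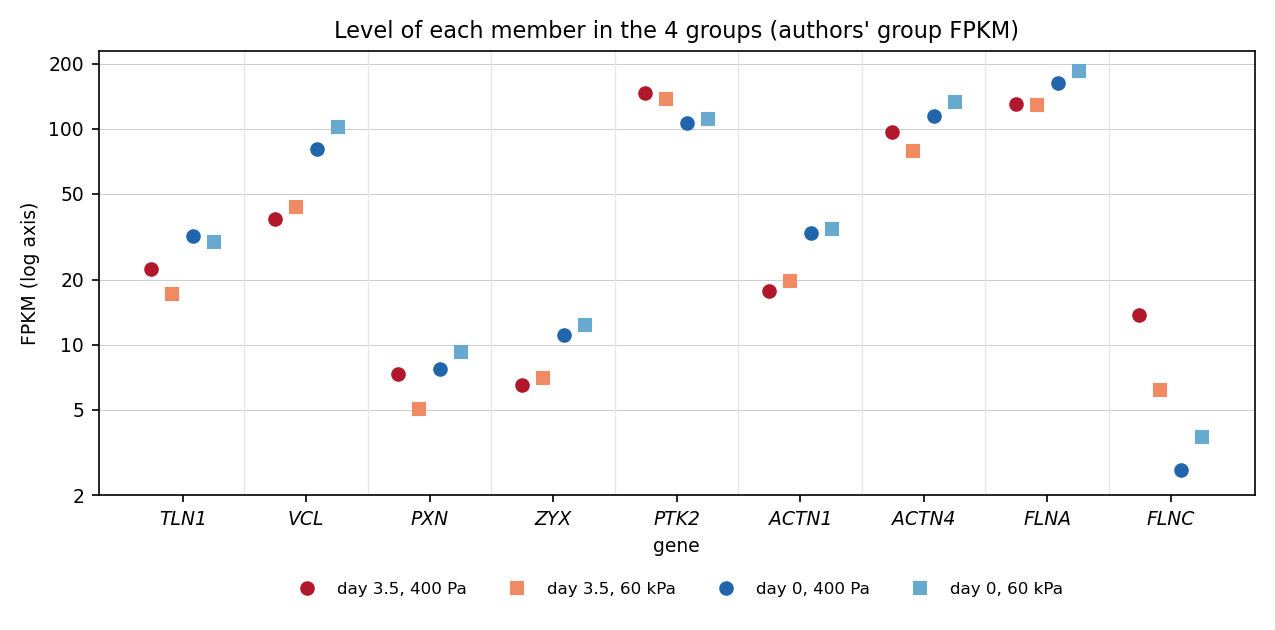
Authors' group FPKM (log axis) of the 9 members, 1 point per group, with no replicate error available. FLNA, ACTN4 and PTK2 lie at 78.4 FPKM or more in all 4 groups, the 7 members other than PTK2 and FLNC are lower in both day 3.5 groups than in either day 0 group, and FLNC is highest at day 3.5 on 400 Pa (13.8 FPKM).

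On hg19, the build named in the submitters' processing notes, the authors' loci of the adhesion genes lay at chr9:35696945-35790490 (TLN1), chr10:75757866-75910821 (VCL), chr12:120639094-120703574 (PXN) and chr7:143076629-143220542 (ZYX), with PTK2 on chromosome 8. The loci of the crosslinkers lay at chr14:69340843-69454180 (ACTN1), chr19:39138281-39260544 (ACTN4), chrX:153576892-153603006 (FLNA) and chr7:128470431-128550773 (FLNC). These intervals are the authors' read clusters and can reach past the gene itself. In the GENCODE release 29 annotation, 3 of the 9 genes (ZYX, TLN1 and PTK2) hold a microRNA gene, 4 overlap another coding gene and 4 an antisense gene. Whether the authors counted by strand is not given in the sources used here, so reads of such partners cannot be told apart.

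The first comparison set the soft against the stiff gel within the induced cells. At day 3.5 no member of the 9 reached q below 0.05 in the authors' deposited table, where 1.40% of the 16130 tested genes were called. Of the 9 members, 6 lay above 0 in log2((FPKM + 1) on 400 Pa / (FPKM + 1) on 60 kPa), with a median of 0.08, against 54.8% and a median of 0.04 over all tested genes. With the groups centred on the median gene or rescaled, FLNA lay below 0 and 5 members above. Count and median were thus close to those of all genes.

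FLNC stood apart from the others. It was at 13.8 FPKM on 400 Pa and 6.15 FPKM on 60 kPa at day 3.5, a log2 ratio of 1.16 with an SE of 0.53. The SE here and below is the deposited log2 ratio divided by its deposited test statistic, an approximation. FLNC was the only member with an unadjusted p below 0.05 (p = 0.00255, q = 0.145 in the authors' deposited table), a limit that 6.03% of tested genes passed. The implied SE gives 95% limits of 0.12 and 2.21 for the log2 ratio. For every member on both days the deposited p was smaller than its test statistic alone would give under a normal approximation. For VCL at day 3.5 the deposited p was 0.565, and the normal p of the test statistic was 0.851. The implied SEs are thus only approximate and may be too wide. The change of 1.05 lay at percentile 96.1 of all tested genes. Mesoderm markers (8 of 8 above 0, 2 called), fibroblast markers (5 of 8 above 0, 3 called) and the 3 smooth muscle markers tested (3 of 3 above 0, none called) were also higher on 400 Pa at day 3.5, by the summed levels given above. Stem cell markers were lower on 400 Pa, with 6 of 7 below 0, a median change of -0.56 and none called. The part of any of these marker lists in the FLNC difference was not tested.

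The adaptors showed smaller differences at day 3.5. PXN, a scaffold for signalling proteins, was at 7.29 FPKM on 400 Pa and 5.03 FPKM on 60 kPa (log2 ratio 0.54, SE 1.13). TLN1 was at 22.3 and 17.1 FPKM (0.38, SE 1.97), and ACTN4 differed by 0.30 (SE 0.75). VCL was at 38.1 FPKM on 400 Pa and 43.3 FPKM on 60 kPa (-0.18, SE 0.98). ZYX (-0.12, SE 1.65), ACTN1 (-0.15, SE 0.77), PTK2 (0.08, SE 0.67) and FLNA (0.02, SE 1.03) lay closer to 0. Every difference but that of FLNC was smaller than its implied SE. By the implied SEs, which may be too wide, the intervals are wide. For VCL 95% limits of the log2 ratio were -2.10 and 1.73, so a missing call does not show equal levels.

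In undifferentiated cells most members lay below 0 in the same comparison. At day 0 no member of the 9 reached q below 0.05 in the authors' deposited table, against 0.150% of 15297 tested genes, and none had an unadjusted p below 0.05, against 1.93% of tested genes. Of the 9 members, 8 lay below 0, that is lower on 400 Pa, with a median of -0.19, against 45.7% and a median of 0.03 over all tested genes. That count was 8 also when the groups were centred on the median gene or rescaled. VCL was at 80.6 FPKM on 400 Pa and 102 FPKM on 60 kPa (log2 ratio -0.34, SE 0.61), and FLNC at 2.63 and 3.73 FPKM (-0.50, SE 0.66). PXN was at 7.66 and 9.27 FPKM (-0.27, SE 0.82), FLNA differed by -0.19 (SE 0.75), ACTN4 by -0.20 (SE 0.51) and ZYX by -0.16 (SE 0.95). ACTN1 (-0.07) and PTK2 (-0.07) lay close to 0, and TLN1 was the only member above it, at 32.0 and 29.8 FPKM (0.10, SE 1.52). Each of these differences was smaller than its implied SE. Smooth muscle markers were also lower on 400 Pa at day 0, with 3 of 3 tested below 0. The median change of -0.66 is that of ACTA2, near the 1 FPKM minimum at 0.31 and 1.07 FPKM. CNN1 was at 18.6 and 24.9 FPKM (change -0.40). The 1 called was TAGLN, which encodes an actin-binding protein of smooth muscle, and which fell to 195 FPKM on 400 Pa, against 489.6 FPKM on 60 kPa (q = 0.0390 in the authors' deposited table). Of the fibroblast markers 1 of 4 tested lay below 0 and of the stem cell markers 4 of 7, with none called. Their part in the members' day 0 differences was not tested.

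**Figure D2:**
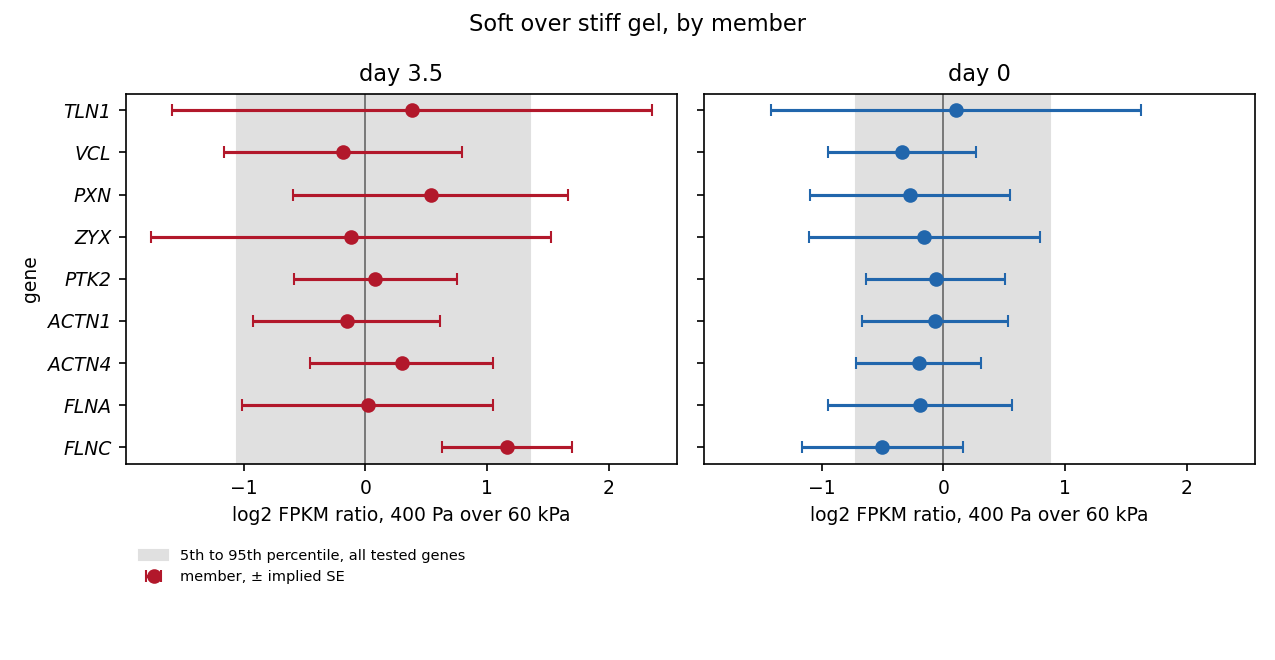
Log2 FPKM ratio of 400 Pa over 60 kPa for each member at day 3.5 (left) and day 0 (right), with bars of 1 implied SE and, in grey, the range of all tested genes between percentiles 5 and 95. FLNC at day 3.5 (1.16) is the only bar that does not reach 0, and at day 0 all points but that of TLN1 lie below 0.

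The stiffness ratios of the days were then compared with each other. For no member did the difference between day 3.5 and day 0 pass after adjustment over 14315 genes (normal approximation on the implied errors, Benjamini-Hochberg), a test that 11 genes passed. The largest difference was that of FLNC, with a log2 ratio of 1.16 at day 3.5 and -0.50 at day 0. That is a difference of 1.67 with an SE of 0.85, which gives an unadjusted p of 0.0492 and an adjusted p of 0.99998 in this fit. For the other 8 members the difference lay between -0.08 (ACTN1) and 0.81 (PXN), each smaller than its SE. As the implied errors may be too wide, a difference that did not pass does not show equal ratios.

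Levels at day 3.5 were next set beside those at day 0 on the same gel. The tables were made separately, so this comparison has no test. Of the 9 members, 7 were lower at day 3.5 on both gels, where 37.5% of the 14391 genes tested on both days were lower on both, and FLNC and PTK2 were higher on both. Both adhesion adaptors and crosslinkers were among the lower genes. On 400 Pa 3 members (VCL, ACTN1 and ZYX) were lower by at least 1.5-fold on the log2(FPKM + 1) scale, against 14.8% of all genes. On 60 kPa 6 were (VCL, ACTN1, PXN, TLN1, ACTN4 and ZYX), against 11.7% of all genes. FLNC was the 1 member higher by at least 1.5-fold, on each gel, against 14.8% of all genes on 400 Pa and 12.3% on 60 kPa. The 1.5-fold limit was chosen after the values were seen.

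VCL had the lowest ratio of day 3.5 over day 0. It was at 38.1 FPKM at day 3.5 and 80.6 FPKM at day 0 on 400 Pa (change -1.06), and at 43.3 and 102 FPKM on 60 kPa (-1.22, percentile 2.18 of all genes). Both day 3.5 groups thus lay below both day 0 groups. ACTN1, the other non-muscle alpha-actinin, was at 17.8 and 32.8 FPKM on 400 Pa (-0.85) and at 19.8 and 34.5 FPKM on 60 kPa (-0.77). ZYX was at 6.49 and 11.1 FPKM on 400 Pa (-0.69) and at 7.03 and 12.3 FPKM on 60 kPa (-0.73). For VCL, ACTN1 and ZYX the change differed by at most 0.16 between the gels.

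PXN, ACTN4 and TLN1 passed the 1.5-fold limit on the stiff gel alone. PXN was at 7.29 FPKM at day 3.5 and 7.66 FPKM at day 0 on 400 Pa (-0.06), and at 5.03 and 9.27 FPKM on 60 kPa (-0.77). ACTN4 was at 96.6 and 115 FPKM on 400 Pa (-0.25) and at 78.4 and 132 FPKM on 60 kPa (-0.75). TLN1 was at 22.3 and 32.0 FPKM on 400 Pa (-0.50) and at 17.1 and 29.8 FPKM on 60 kPa (-0.76). The excess on one gel is, apart from the added 1, the same quantity as the difference of stiffness ratios between the days, and for none of these genes did that difference pass the test above. FLNA was lower by less, at 130.1 and 162 FPKM on 400 Pa (-0.32) and at 128 and 186 FPKM on 60 kPa (-0.53).

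FLNC and PTK2 were higher at day 3.5. FLNC was at 13.8 FPKM at day 3.5 and 2.63 FPKM at day 0 on 400 Pa, a 5.24-fold higher level (change 2.02, percentile 98.7 of all genes). On 60 kPa it was at 6.15 and 3.73 FPKM, a 1.65-fold higher level (change 0.60, percentile 88.0), only just past the limit, and 0.51 and short of it when the groups were rescaled without the 10 highest loci. PTK2 was at 146 and 106 FPKM on 400 Pa (0.45) and at 138 and 111 FPKM on 60 kPa (0.31). All signs in this comparison were the same under the scalings tried. The filamin genes thus lay on opposite sides, FLNC higher and FLNA lower at day 3.5 on both gels. Stem cell markers were lower by at least 1.5-fold for 6 of 7 genes on 400 Pa and 4 of 7 on 60 kPa, with 1 higher on each gel. Smooth muscle markers were lower by that much for 1 of 3 genes and higher for 1 on 400 Pa (median change -0.22). On 60 kPa 2 of 3 were lower (median -1.27). Of 4 fibroblast markers tested on both days, 1 was lower on each gel, with 2 higher on 400 Pa (median 0.42) and 1 on 60 kPa (median 0.13). LUM, DCN, COL3A1 and POSTN, outside these 4, rose on 400 Pa from below 1 FPKM, LUM from 0.08 to 136 FPKM. On 60 kPa LUM reached 4.69 FPKM and DCN 3.79 FPKM, with COL3A1 and POSTN still below 1 FPKM. The part of these markers in the members' differences was not tested.

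**Figure D3:**
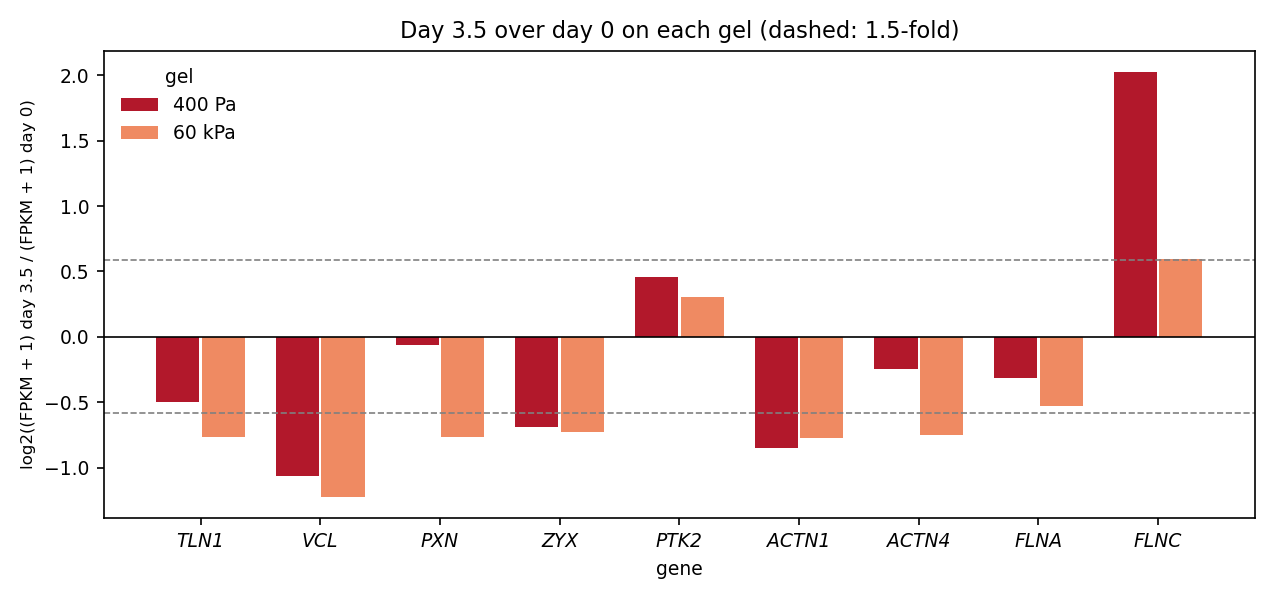
Change of each member at day 3.5 over day 0 on the log2(FPKM + 1) scale, on 400 Pa (dark red bars) and 60 kPa (orange bars), with dashed lines at 1.5-fold. VCL, ACTN1 and ZYX are past the lower line on both gels, PXN, ACTN4 and TLN1 on 60 kPa alone, and FLNC reaches 2.02 on 400 Pa.

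Promoter windows were read for the members whose levels differed most between the days (FLNC and VCL), and for those with a match to the element of serum response factor, the factor best known for driving actin and adhesion genes. The windows are the 250 bases before an annotated start, from RefSeq on GRCh38.p14 and not on the build of the tables, and 8 of the 9 members were in that set with 13 starts. Capitals mark matches on either strand to the CArG box, to CATTCC (bound by TEAD factors, the partners of YAP and TAZ) or to TGANTCA (AP-1).

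FLNC, chr7:128830156-128830405, plus strand: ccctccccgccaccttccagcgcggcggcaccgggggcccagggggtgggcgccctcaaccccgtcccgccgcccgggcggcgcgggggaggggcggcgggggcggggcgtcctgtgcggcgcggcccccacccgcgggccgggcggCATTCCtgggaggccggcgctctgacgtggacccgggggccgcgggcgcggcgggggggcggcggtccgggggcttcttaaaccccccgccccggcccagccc

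VCL, chr10:73997866-73998115, plus strand: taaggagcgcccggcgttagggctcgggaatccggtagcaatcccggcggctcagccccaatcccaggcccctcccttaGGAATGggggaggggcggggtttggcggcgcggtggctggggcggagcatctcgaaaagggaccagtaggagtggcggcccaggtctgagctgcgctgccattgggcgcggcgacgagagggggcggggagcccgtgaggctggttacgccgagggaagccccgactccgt

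FLNA, chrX:154374635-154374884, minus strand: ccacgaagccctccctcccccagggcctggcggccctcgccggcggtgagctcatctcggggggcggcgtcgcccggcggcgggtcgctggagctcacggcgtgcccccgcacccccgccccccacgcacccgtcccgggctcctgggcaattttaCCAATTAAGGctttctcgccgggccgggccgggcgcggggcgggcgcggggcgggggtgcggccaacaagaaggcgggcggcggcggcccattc

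ACTN1, chr14:68977567-68977816, minus strand, 1 of 4 starts: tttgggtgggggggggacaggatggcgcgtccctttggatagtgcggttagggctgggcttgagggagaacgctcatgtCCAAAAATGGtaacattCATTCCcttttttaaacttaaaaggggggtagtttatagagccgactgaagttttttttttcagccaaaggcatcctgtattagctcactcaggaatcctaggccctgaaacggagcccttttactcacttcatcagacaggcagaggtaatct

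A CArG box was found in 2 of the 13 windows, at FLNA (CCAATTAAGG, from base -94) and at 1 start of ACTN1 (CCAAAAATGG, from base -171), against 1.16% of all 35116 windows. CATTCC was found in 4 of 13, at FLNC, VCL, 1 start of ACTN1 and 1 start of PXN, against 11.9% of all windows. In FLNC it starts at base -103 in the sense direction, and in VCL it is on the other strand. No match overlapped one of another motif. TGANTCA was found in 1 of 13, at ACTN4, against 6.57% of all windows. Of the genes with CATTCC, FLNC was higher at day 3.5, and VCL, ACTN1 and PXN were lower. FLNA and ACTN1, which hold the CArG box, were also lower, as were 7 of the 9 members on both gels. Letters in a window are a description and not a binding site.

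The 7 neighbouring pathway lists were described in the same way. They hold 79 genes, of which 68 were tested at day 3.5 and 69 at day 0. By the authors' deposited table there were 2 of 68 called at day 3.5, both with the higher level on 400 Pa, and none of 69 at day 0, against 1.40% and 0.150% of all tested genes. At an unadjusted p below 0.05 the counts were 11 of 68 and 2 of 69, against 6.03% and 1.93% of all tested genes. The median change over the lists was 0.08 at day 3.5 and -0.02 at day 0. Changes of list genes are on the log2(FPKM + 1) scale, and their SEs are those of the log2 ratio without the added 1.

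NEDD9, a scaffold of the p130Cas family that binds focal adhesion kinase, rose on 400 Pa at day 3.5. It was at 26.8 FPKM on 400 Pa and 6.53 FPKM on 60 kPa (change 1.88, SE 0.59, q = 0.00783 in the authors' deposited table), and at 1.70 and 2.33 FPKM at day 0. It was the 1 call among 13 genes of FAK and SRC signalling, of which 5 lay above 0 (median -0.02). BCAR1, which encodes p130Cas itself, was at 15.8 and 8.62 FPKM (0.81, SE 0.73) with q = 0.506 in the authors' deposited table. TES, the LIM adaptor testin, also rose on 400 Pa at day 3.5, at 32.6 and 12.9 FPKM (1.27, SE 0.66, q = 0.0278 in the authors' deposited table), against 14.5 and 20.5 FPKM at day 0. It was the 1 call among 11 VASP family and LIM adaptors tested (median 0.14). EVL, of the VASP family, had 36.8 and 34.3 FPKM at day 3.5 and 21.0 and 15.3 FPKM at day 0.

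Genes of integrin activation and the ILK complex had no call in 10 tested at day 3.5, though 8 of 10 lay above 0 with a median of 0.46. FERMT2, which encodes the integrin activator kindlin-2, was the gene furthest below 0, at 103 FPKM on 400 Pa and 232 FPKM on 60 kPa (change -1.17, SE 0.55, q = 0.0789 in the authors' deposited table), and at 93.1 and 82.7 FPKM at day 0. PARVA, the alpha-parvin that binds ILK, was at 10.03 and 4.46 FPKM (1.01, SE 0.79, q = 0.404 in the authors' deposited table). Among the 9 relatives of the members none was called on either day (median 0.09 at day 3.5 and -0.10 at day 0). TLN2, the other talin, had 20.5 and 10.5 FPKM at day 3.5 and 5.61 and 6.06 FPKM at day 0, and ACTN3, a muscle alpha-actinin, had 2.87 and 6.69 FPKM and 12.4 and 10.4 FPKM.

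The other actin crosslinkers, the non-muscle myosin genes and SRF with its cofactors held no called gene on either day. The 10 crosslinkers and spectrins tested at day 3.5 had a median of 0.05, and the 9 tested at day 0 one of -0.21. LCP1, which encodes L-plastin, was at 57.0 and 24.5 FPKM on 400 Pa and 60 kPa at day 3.5 and at 25.6 and 37.0 FPKM at day 0. FSCN1, the bundling protein fascin, was at 104 and 68.2 FPKM and at 45.9 and 54.9 FPKM. The 12 myosin genes had medians of 0.04 and 0.02. MYL9, a myosin light chain, had 20.4 and 11.9 FPKM at day 3.5 and 27.0 and 45.5 FPKM at day 0, and MYLK, a myosin light chain kinase, was at 5.23 and 9.11 FPKM and at 5.92 and 4.22 FPKM. The 3 genes of the SRF list had medians of 0.04 and 0.03, with MKL1, a cofactor that shuttles with actin, at 5.28 and 4.58 FPKM at day 3.5 and MKL2 at 20.7 and 22.5 FPKM.

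**Figure D4:**
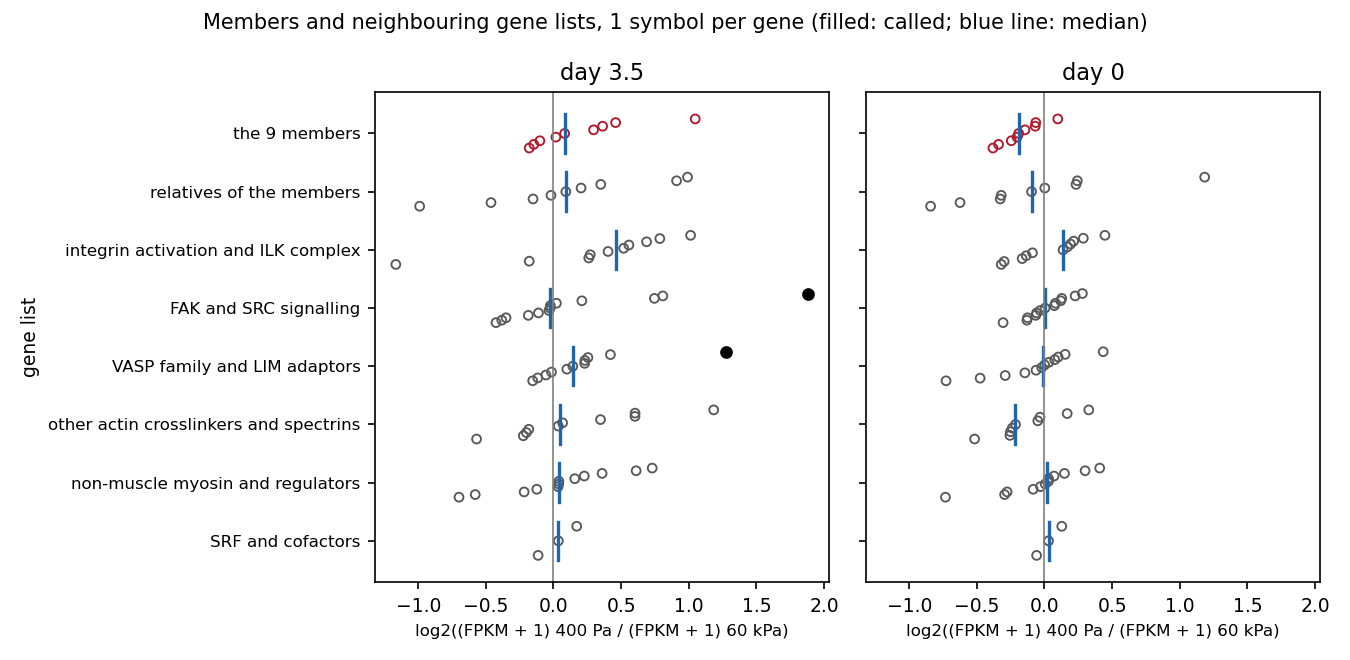
Change of 400 Pa over 60 kPa on the log2(FPKM + 1) scale for the 9 members and the tested genes of 7 neighbouring lists at day 3.5 (left) and day 0 (right). Points are genes, spread vertically only to keep them apart, blue lines are medians, and the 2 filled points are the called genes NEDD9 (1.88) and TES (1.27).

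Between the days, the neighbouring lists leaned less to lower levels at day 3.5 than the members did. Of 67 list genes tested on both days, 7 were lower and 13 higher by at least 1.5-fold at day 3.5 on 400 Pa. Of all genes 14.8% were lower and 14.8% higher by that much. On 60 kPa 10 list genes were lower and 9 higher, against 11.7% and 12.3% of all genes. Their median changes were 0.05 and -0.11, where the members had -0.32 and -0.75 and all genes -0.02 on both gels. This difference was not tested.

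The members' profiles over the 4 groups were finally compared with those of other genes. Each profile was log2(FPKM + 1) less its mean over the groups, and distance was the root mean square difference over the 4 values. FLNA (0.08), ACTN4 (0.09) and PXN (0.10) lay nearest to the members' mean profile, and VCL (0.43) and FLNC (0.87) lay farthest. Each member is itself part of that mean, unlike the other genes below, which draws its distance down. The closest pair was ACTN1 with ZYX, at a distance of 0.06. Among 9087 other genes with at least 5 FPKM in every group, SDHC, MAP4, ALDOC, ENSA, GNAL and C1GALT1 were nearest to the mean profile, at distances of 0.01 to 0.02. MAP4, which encodes a microtubule-associated protein, was at 32.4 and 27.9 FPKM on 400 Pa and 60 kPa at day 3.5 and at 35.4 and 41.3 FPKM at day 0. With 4 points per gene and this many candidates, the likeness is a description.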

How the data were processed

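RNA-seq of H9 cells was available as 1 deposited table per day. Per the submitters' processing notes the authors used Cufflinks on hg19; its version, the aligner and the annotation could not be taken from the sources used here. Per the file headers the deposited tables hold, per locus, 1 FPKM for each group, the log2 ratio (60 kPa on top), a score (the test statistic), a p-value and a q-value. The log2 ratios and the Benjamini-Hochberg q-values were recomputed from the deposited columns and returned the same values to within 0.0001. Libraries were pooled by the authors, so no value per library was used.

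Each symbol was counted once, by its row with the highest mean, and unnamed loci (3583 at day 3.5 and 3516 at day 0) were left out. A gene counted as tested where the authors tested it and either group reached 1 FPKM, and calls were the deposited q below 0.05. Changes are log2((FPKM + 1)/(FPKM + 1)), with 400 Pa over 60 kPa or day 3.5 over day 0. The deposited ratio, which runs the other way, was turned round before use. The difference between days was divided by the implied errors and tested with a normal approximation, two-sided, with Benjamini-Hochberg adjustment. This step was first run on simulated data drawn from normal errors of the same implied size. Such a run cannot show whether the implied errors or the normal approximation hold in the real data. Named genes were the 9 members, the called genes of each pathway list and the 2 with the largest change in it at 5 FPKM or more. The members and lists were chosen with earlier results of these data known. Loci were shifted to 1-based starts. Coordinates of promoters come from RefSeq on GRCh38.p14, and gene overlaps from GENCODE release 29. Alternatives were other thresholds, pseudocounts, FPKM minimums and scalings. Tables were handled in pandas 2.3.3 and numpy 2.4.6 under Python 3.11.15, tests run in scipy 1.17.1 and plots drawn in matplotlib 3.10.9. Protein sequences, foreseen for the paired paralogs, were not used here.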

Additional observations from a re-analysis of the deposited data

How the results depend on the processing

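No paired analysis was possible because the deposited tables give 1 pooled value per group and the replicate numbers of the labels have no values of their own. For the same reason no library could be left out. Of 83 recomputed values, 80 stayed within 1.5 times their count or within 0.1 log2 units. At an unadjusted p below 0.05 in place of the adjusted call, 1 member (FLNC) passed at day 3.5 and 1 (FLNC again) in the comparison between days. The numbers of called members stayed at 0 at q below 0.1 or 0.01, under both other FPKM minimums and with the normal p of the test statistic. The median change at day 3.5 over day 0 on 60 kPa was -0.85 when the groups were rescaled without the 10 highest loci, which hold 44.9% to 52.1% of the summed FPKM, against -0.75 as deposited. That scaling put the median gene at -0.11. Over the other alternatives it lay between -0.80 and -0.68. Without the 3 genes that hold a microRNA gene, an alternative chosen after seeing the data, the 4 medians were 0.16 and -0.22 for 400 Pa over 60 kPa at day 3.5 and day 0, and -0.28 and -0.76 for day 3.5 over day 0 on 400 Pa and 60 kPa. Depth is unknown. How small a change could be detected is known only roughly, as the implied SEs of 0.51 to 1.97 log2 units are approximate and may be too wide.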
